A study of Mus musculus with 8 samples.

Results

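The genes described are 45 protein-coding genes of the spliceosome and of closely related Sm-like proteins, measured by RNA sequencing in total splenocytes of mice. They were selected on their symbols, as every protein-coding gene of the count table whose symbol begins with Snrp, Lsm and a digit, Sf3a or Sf3b and a digit, or Srsf and a digit, out of 51826 genes in all. The set was also chosen from values of the contrast described here, tRA against control, which were known when it was proposed. The members' values in that contrast are therefore given as a description. The p-values printed come from fits over all genes, no test of the set as a whole is given, and nothing is read from the number of members called.

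The spliceosome removes introns from pre-mRNA. Its small nuclear ribonucleoproteins (snRNPs) each carry an RNA held in a ring of Sm proteins, or, in the U6 snRNP, in a ring of LSm proteins, while the SF3a and SF3b complexes bind the U2 snRNP to the branch site of the intron. SR proteins, named for their stretches of arginine and serine, bind exons and recruit the snRNPs to nearby splice sites. In lymphocytes, alternative splicing of Ptprc, the gene for CD45, is a well known case.

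The 8 female Balb/c mice came in groups of 4. The tRA mice received all-trans retinoic acid, the active metabolite of vitamin A, by mouth each day from weaning, and the control mice received the vehicle, canola oil. The mice were killed when 3 months old for their spleens, and no mouse was injected with pristane, an oil that induces lupus-like disease. The labels give a dose of 1 mg/kg body weight for all 8 mice, controls included, while the study's methods give vehicle alone to the controls, and the group names follow the sample titles. Counts on genes totaled 37539631, 31833853, 35924683 and 30919272 in control mice 1 to 4 and 33755595, 31810417, 35165876 and 32042754 in tRA mice 1 to 4.

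The unit of level is CPM, a gene's count over the library total adjusted by the TMM method. The spleen was recognizable in its markers. The B cell list, led by Cd79a, a subunit of the B cell receptor, summed to between 4993 and 6070 CPM in each control mouse and between 5324 and 5531 CPM in each tRA mouse. The T cell list, led by Lck, summed to between 1185 and 1464 CPM and between 1321 and 1406 CPM. Of 3 genes of kidney, gut and liver, Umod had 0 counts in all 8 mice, and Alb did not pass the filter on low counts. Vil1 did, at 0.406, 0.311, 0.607 and 0.388 CPM in control mice and 0.764, 0.567, 0.515 and 1.13 CPM in tRA mice, with a log2 fold change of 0.785 at an unadjusted p under 0.05. With Alb included, the list summed to 0.406, 0.311, 1.01 and 0.420 CPM in control mice. In tRA mice 1 to 4 it summed to 2.17, 0.567, 0.732 and 1.16 CPM, highest in tRA mouse 1. In such bulk samples, fewer cells of a type and less RNA per cell cannot be told apart.

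All 45 members passed the filter on low counts, among 16484 genes that did. The quasi-likelihood test of edgeR called 0 of the 45 members with an FDR under 0.1, beside 0% of all genes tested. With DESeq2, 0 of the 44 members with an adjusted value were called, beside 0.197% of all genes (27 of 13698), and limma-voom called 1 gene, 0.00607% of all genes, with 0 members. At an unadjusted p under 0.05 there were 7 members, Snrpd2, Snrpf, Snrpg, Snrpe, Snrpc, Sf3b5 and Lsm11, beside 6.49% of all genes (1070). Of these, 6 had a negative log2 fold change, beside 3.55% of all genes, and 1 a positive one, beside 2.94%. DESeq2 had 8 members at an unadjusted p under 0.05, beside 4.18% of the 29805 genes to which it gave a p, and limma-voom 8, beside 6.75% of all genes. A negative log2 fold change, of any size, was seen in 31 of the 45 members, beside 49.7% of all genes, in 28 to 32 members under the other normalizations, filters and offsets, and in 26 to 36 with 1 mouse left out. The median log2 fold change (tRA over control) was -0.051 over the members and 0.0014 over all genes tested. The members' median was -0.117 without tRA mouse 1, -0.083 with an offset on length and GC content and the replicate number as a block, and -0.023 with library size alone.

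For 2 members, Snrpd2 and Snrpf, all 4 tRA mice lay below all 4 control mice, beside 1.63% of all genes, and for 0 members they lay above, beside 1.91%. These counts depended on single mice. Of all 8 mice, control mouse 3 had the highest level in 18 members and tRA mouse 3 the lowest in 15, whereas tRA mouse 1 had the lowest in 0. Without tRA mouse 1, 11 members had tRA mice entirely below the control mice, beside 6.95% of all genes, and 0 entirely above, beside 5.7%. At an unadjusted p under 0.05 there were then 16 members, beside 12.6% of all genes. The count of members at an unadjusted p under 0.05 was 11 without control mouse 4, beside 6.35% of all genes, and 4 without control mouse 1, beside 5.25%. It was 4 without tRA mouse 2, beside 4.55% of all genes, 3 without control mouse 3, beside 5.44%, and 3 without tRA mouse 4, beside 3.93%. Without control mouse 2, 4 members had tRA mice entirely below the control mice, beside 3.29% of all genes, and 0 entirely above, beside 3.29%. Without control mouse 4, 3 lay below, beside 3.05% of all genes, and 1, Srsf12, above, beside 3.29%. With an offset on length and GC content and the replicate number as a block, 11 members had an unadjusted p under 0.05, beside 6.98% of all genes, and with the block alone 7 had, beside 7.28%.

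Compared per kilobase of merged exons, the members ranged from 0.405 to 292 CPM per kb in the control mice. The SR genes led, with a median of 51.3 CPM per kb over 11 genes, followed by SF3a (23.2, 3 genes), SF3b (22.1, 6 genes), the Sm core (21.9, 8 genes), the U1 and U2 proteins (14.2, 4 genes) and LSm (10.4, 13 genes). Without control mouse 2, the SF3b median was 22.9 and that of the Sm core 23.1 CPM per kb. Without control mouse 4 they were 22.5 and 22.8, so the order of these classes depends on single mice. The order of the classes also depends on the length used, as does that of some genes. By the longest transcript, the SF3b median was 44.5 CPM per kb, above SF3a at 29.4 and the Sm core at 27.2, and SR was first at 101. The median over all protein-coding genes tested was 5.67 CPM per kb.

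In descending order, the levels per kb ran Srsf5, Srsf2, Srsf6, Sf3b1, Srsf7, Lsm4, Snrpb, Srsf1, Sf3b2, Srsf3, Srsf11, Srsf9, Lsm14a, Snrpf, Srsf10, Snrpd3, Sf3a2, Sf3a3, Snrpe, Sf3b6, Sf3b3, Snrpd1, Sf3b4, Sf3a1, Lsm14b, Lsm12, Lsm5, Snrpb2, Snrpa, Snrpg, Snrpa1, Srsf4, Lsm6, Lsm3, Snrpd2, Lsm10, Sf3b5, Lsm7, Lsm8, Lsm1, Snrpc, Lsm2, Lsm11, Srsf12 and Snrpn. Srsf5 stood first at 292.5 ± 16.2 CPM per kb (SD, n = 4) and Srsf2 second at 141 ± 8.36, a gap wider than either spread. Many neighbours further down did not differ beyond their spread, as with Srsf1 at 57.1 ± 5.78 and Sf3b2 at 56.9 ± 3.795. The lowest were Srsf12 at 0.589 ± 0.140 and Snrpn at 0.405 ± 0.139. Snrpn, an imprinted homolog of Snrpb best known from neurons, shares 80.9% of 686 aligned coding bases with Snrpb.

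**Figure D1:**
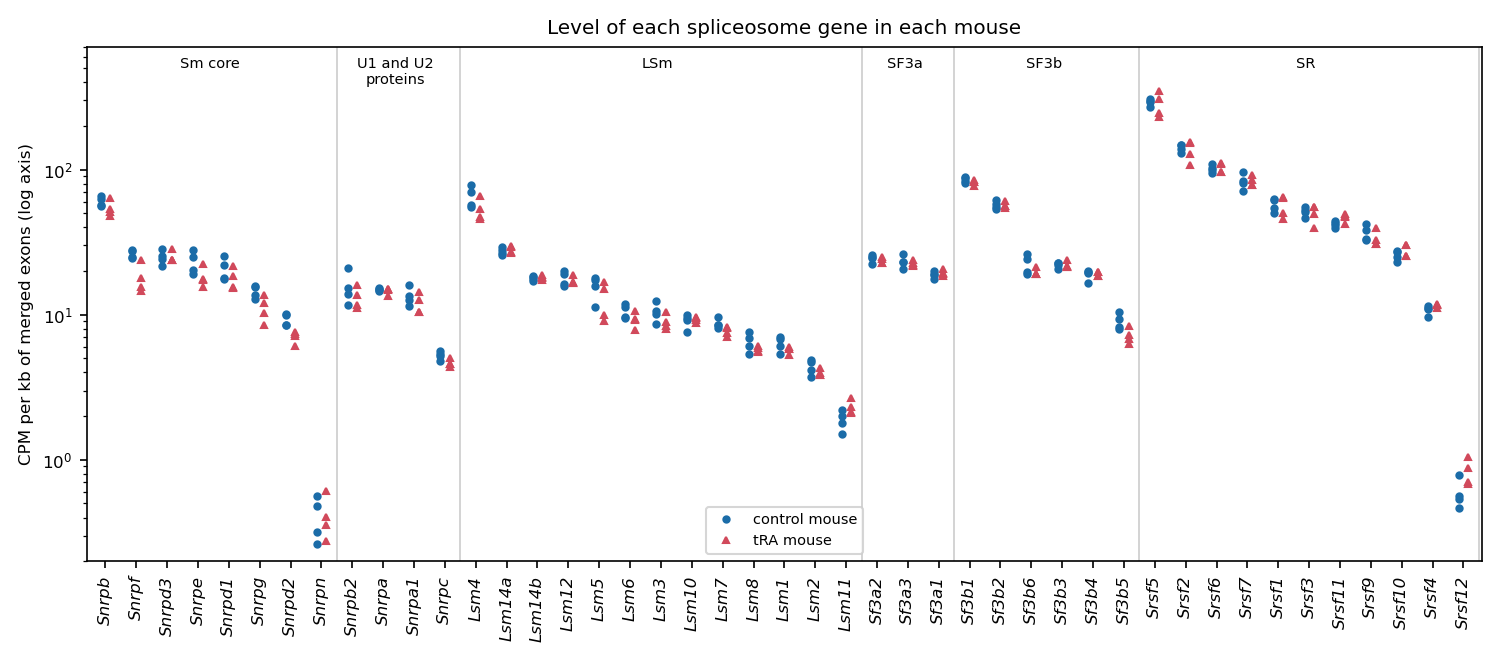
CPM per kb of merged exons (log axis) for each of the 45 genes, grouped by class and ordered by the control mean, with 1 circle per control mouse and 1 triangle per tRA mouse. Srsf5 is the most abundant at 292.5 CPM per kb and Snrpn the least at 0.405.

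The Sm core forms the ring on the U1, U2, U4 and U5 RNAs, and its genes had the most negative median, a log2 fold change of -0.28 over 8 genes. Of these 6 were negative, and 6 to 8 with 1 mouse left out, where Snrpd3 and Snrpn took either sign. Snrpf, which encodes SmF, was at 24.2, 21.5, 23.5 and 21.3 CPM in control mice 1 to 4 and at 20.6, 15.5, 13.3 and 12.6 CPM in tRA mice 1 to 4. Every tRA mouse was below every control mouse, with tRA mouse 1 just under the lowest control. The log2 fold change was -0.55 (standard error 0.14). Snrpd2, for SmD2, was at 26.1, 22.2, 26.3 and 22.3 CPM with vehicle and at 19.8, 18.5, 15.9 and 19.2 CPM with tRA. Again the groups did not overlap, and tRA mouse 3 was lowest (log2 fold change -0.40, standard error 0.099).

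Snrpg, for SmG, was at 24.7, 20.04, 24.4 and 21.3 CPM in control mice and at 21.5, 18.9, 13.3 and 16.1 CPM in tRA mice. Snrpe, for SmE, was at 34.2, 26.0, 38.3 and 27.9 against 30.6, 24.1, 21.4 and 23.9 CPM. In both genes tRA mouse 1 lay among the controls, so the groups overlapped, and tRA mouse 3 was the lowest of all. Their log2 fold changes were -0.38 (standard error 0.14) for Snrpg and -0.34 (standard error 0.14) for Snrpe. SmE, SmF and SmG join the ring as a preformed trimer.

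Snrpd1, for SmD1, was at 45.3, 36.3, 52.2 and 36.9 CPM in control mice and at 44.2, 37.98, 31.3 and 32.1 CPM in tRA mice. Snrpb, for SmB, was at 130.1, 112, 125 and 110.3 CPM and at 126, 106, 94.7 and 101 CPM. For Snrpd1, tRA mice 1 and 2 lay within the control range, and for Snrpb only tRA mouse 1 did, with log2 fold changes of -0.23 (standard error 0.14) and -0.16 (standard error 0.095). That of Snrpd1 was -0.125 without control mouse 3, and that of Snrpb was -0.25 without tRA mouse 1 and -0.089 with an offset on coding length and GC content. Snrpd3, for SmD3, was at 87.0, 74.9, 97.1 and 82.8 CPM and at 97.2, 81.9, 82.6 and 81.8 CPM. Its groups overlapped, and the log2 fold change was 0.0070 (standard error 0.091). This was -0.058 without tRA mouse 1 and 0.068 without control mouse 3, and it was also negative without control mouse 2 or control mouse 4. Snrpn was at 0.568, 0.685, 1.21 and 1.03 CPM and at 1.31, 0.598, 0.868 and 0.764 CPM, near the limit of the filter, with no separation. Its log2 fold change of 0.021 ran from -0.23 without tRA mouse 1 to 0.22 without control mouse 3.

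**Figure D2:**
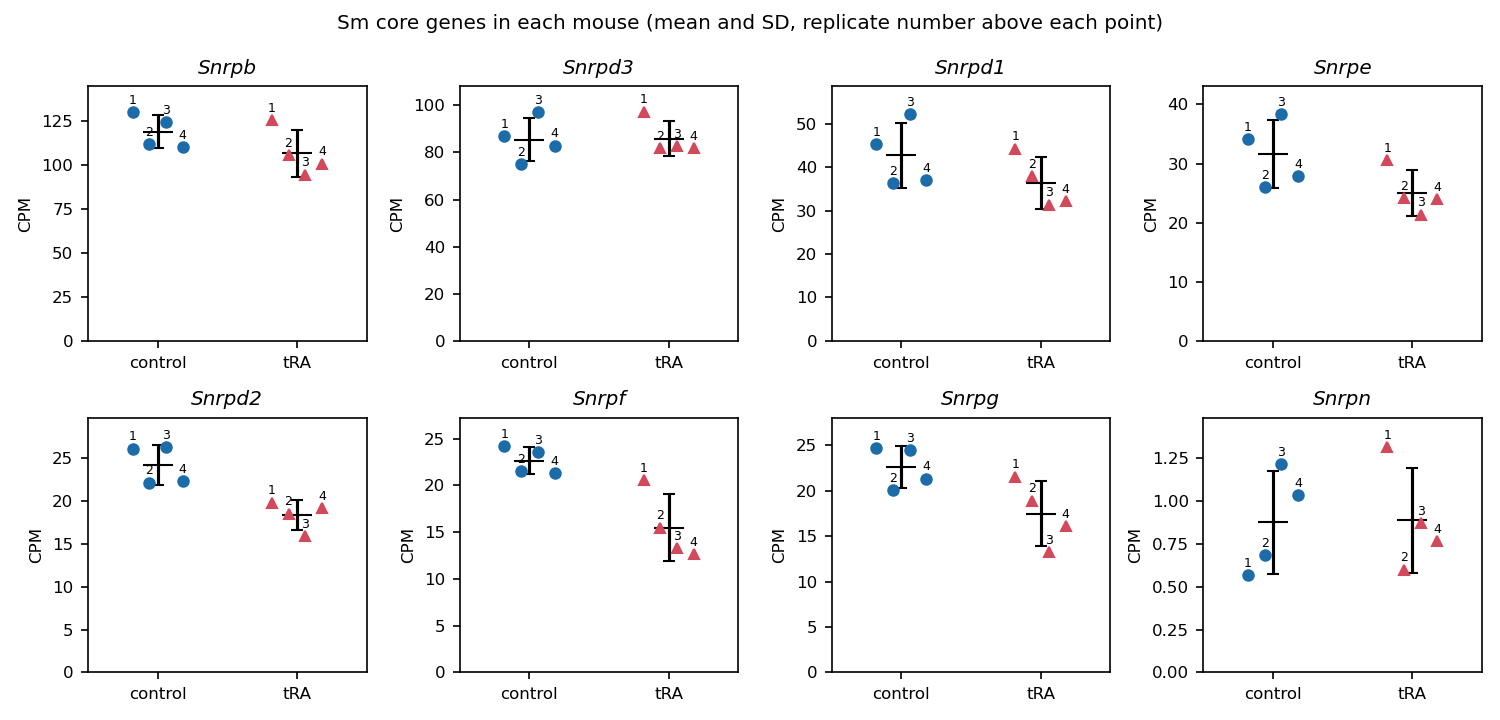
CPM of the 8 Sm core genes in each of the 4 control (circles) and 4 tRA (triangles) mice, with bars for the mean and SD and the replicate number above each point. Snrpd2 and Snrpf are the genes in which the groups do not overlap.

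Among the proteins particular to U1 and U2, all 4 genes had a negative log2 fold change, with a median of -0.18, except that Snrpa was positive with the offsets on length and GC content and, at 0.0015, without tRA mouse 4. The median was -0.069 without control mouse 3. Per kb of merged exons, the control level was 15.46 ± 4.0 CPM (SD, n = 4) for Snrpb2 and 14.94 ± 0.248 CPM (SD, n = 4) for Snrpa, a gap within the spread. Snrpb2, a U2 protein that binds RNA, was at 43.9, 33.3, 60.0 and 39.5 CPM in control mice and at 45.8, 38.9, 32.0 and 33.1 CPM in tRA mice. Control mouse 3 stood high and the rest overlapped, and its log2 fold change of -0.24 (standard error 0.17) was -0.062 without control mouse 3. Snrpc, for the C protein of U1, which steadies the pairing of U1 with the 5′ splice site, was at 34.1, 36.7, 35.1 and 31.5 CPM and at 33.0, 28.5, 29.7 and 29.8 CPM. Only tRA mouse 1 reached into the control range (log2 fold change -0.18, standard error 0.077). Snrpa, for the A protein of U1, had the value closest to 0 of the 4, at 44.7, 44.0, 43.4 and 45.1 CPM against 44.9, 44.6, 43.5 and 40.0 CPM. Snrpa1, whose protein pairs with that of Snrpb2 on the U2 RNA, had a log2 fold change of -0.17, which was -0.077 without control mouse 3 and -0.27 without tRA mouse 1.

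The LSm genes serve in several complexes. Their median log2 fold change was -0.14 over 13 genes, -0.198 without control mouse 2, -0.084 without control mouse 3 and -0.030 with an offset on coding length and GC content. LSm2 to LSm8 ring the U6 RNA and LSm1 to LSm7 act in the decapping of mRNA. All 8 of these genes had a negative value, from -0.30 to -0.13. With the offset on coding length and GC content they ran from -0.32 (Lsm5) to 0.0021 (Lsm7). Lsm2 was then at -0.030, Lsm1 at -0.047 and Lsm6 at -0.058. With 1 mouse left out, these 8 values lay between -0.46 (Lsm5) and -0.081 (Lsm8). The other 5 genes, Lsm10, Lsm11, Lsm12, Lsm14a and Lsm14b, had 4 positive values. With 1 mouse left out, Lsm10 reached -0.043, Lsm14b -0.011 and Lsm12 0.012, so their signs are uncertain. The median coding length was 1083 bp in the 5 genes, with Lsm10 at 366 bp, and 308 bp in the 8, with Lsm4 at 414 bp, and the difference between these sets was not tested. Lsm4, the most abundant LSm gene per kb, was at 72.6, 58.8, 81.2 and 57.5 CPM in control mice and at 68.4, 55.7, 48.7 and 47.2 CPM in tRA mice. Only tRA mouse 1 lay within the control range, and the log2 fold change was -0.30 (standard error 0.14), or -0.11 with the offset on coding length. Lsm5, at 14.2, 12.4, 13.7 and 8.92 CPM against 13.2, 11.8, 7.19 and 7.88 CPM, had tRA mice 3 and 4 below every control. Its log2 fold change was -0.30 (standard error 0.21), -0.17 without tRA mouse 3 and -0.46 without tRA mouse 1.

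Lsm11, a protein of the U7 snRNP that cuts histone pre-mRNA, was the member with a positive value at an unadjusted p under 0.05. It was at 14.2, 11.6, 9.74 and 12.9 CPM in control mice and at 13.5, 13.8, 17.2 and 15 CPM in tRA mice. Control mouse 1 lay among the tRA mice, and the log2 fold change was 0.30 (standard error 0.13). Lsm10, its partner in U7, stood at 0.030.

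The SF3a genes stayed close to 0. Sf3a2 was at 68.4, 66.6, 59.7 and 65.8 CPM in control mice and at 60.2, 60.7, 66.5 and 64.6 CPM in tRA mice. Sf3a1 was at 123, 116, 109 and 118 CPM and at 118, 114, 127 and 119 CPM. In both genes the groups overlapped, and the log2 fold changes were -0.048 (standard error 0.068) and 0.041 (standard error 0.062). Without control mouse 3 they were -0.094 and 0.0049, and without control mouse 1 -0.023 and 0.068. Sf3a3, at -0.046, was at -0.097 without control mouse 2 and at 0.0063 without control mouse 3. With an offset on transcript length and GC content, Sf3a2 was at 0.072, the most positive of the 3, and the class median of -0.046 turned positive, at 0.0082. With the offset on coding length Sf3a2 was at 0.077.

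Of the SF3b genes, Sf3b1, the subunit that grips the branch site helix, was at 952, 926, 1018 and 998 CPM in control mice and at 964, 929, 877 and 937 CPM in tRA mice. The groups overlapped, and the log2 fold change was -0.071 (standard error 0.070), -0.047 without tRA mouse 3 and -0.13 with the offset on coding length. Sf3b5, a small subunit, was at 36.0, 31.7, 40.4 and 30.7 CPM and at 32.0, 27.7, 24.3 and 26.1 CPM. Only tRA mouse 1 lay within the control range, and the log2 fold change was -0.33 (standard error 0.11). Sf3b4, at 42.7, 43.6, 35.5 and 42.1 against 42.6, 40.1, 40.1 and 42.4 CPM, had a log2 fold change of 0.011 (standard error 0.078), with overlapping groups. It was 0.042 without control mouse 2, -0.058 without control mouse 3 and also negative without tRA mouse 1 or tRA mouse 4.

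The SR genes had values on both sides of 0. Srsf5, the most abundant, was at 1165, 1190, 1232 and 1079 CPM in control mice and at 1399, 1231, 976 and 926 CPM in tRA mice. The tRA mice lay on both sides of the controls, with mice 1 and 2 high or level and mice 3 and 4 low. Over the 11 genes, the mean of log2 CPM centred on each gene was 0.13 and 0.15 in tRA mice 1 and 2 and -0.15 and -0.057 in tRA mice 3 and 4, against a range from -0.066 to 0.048 in control mice. The class median, -0.0022, took either sign across the alternatives, from -0.053 to 0.057, and it was positive (0.027) with library size alone. Srsf9 had the most negative value, at 63.8, 54.1, 69.6 and 54.6 CPM against 65.7, 53.9, 50.4 and 50.9 CPM (log2 fold change -0.13, standard error 0.11). This was -0.064 without control mouse 3 and -0.23 without tRA mouse 1. All its tRA mice but mouse 1 lay below every control. Srsf12, a low-abundance member, had the most positive, at 1.68, 1.77, 1.47 and 2.49 CPM against 2.20, 3.27, 2.14 and 2.78 CPM (log2 fold change 0.49, standard error 0.22), with control mouse 4 among the tRA mice. SR genes make transcripts that hold a poison exon, a segment with a stop codon that sends the RNA to decay. In GENCODE M21, 9 of the 11 SR genes have a transcript classed for nonsense-mediated decay, and 28.4% of the protein-coding genes tested have one. Counts here sum over all transcripts of a gene, and the use of single isoforms was not analysed here.

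Many of the members with negative values are short genes, and short genes had lower values across the whole table. Among protein-coding genes with a coding length of up to 450 bp, 74% of 883 had a negative log2 fold change, and the 866 that are not members had a median of -0.13. The 17 members of that length had a median of -0.22, with 15 negative. Over 450 and up to 900 bp the median was -0.050 over other genes and -0.043 over 15 members, and over 3000 bp the median of other genes was 0.039. In the shortest genes, the median of log2 CPM centred on each gene was 0.10, -0.0037, 0.19 and -0.024 in control mice 1 to 4 and 0.10, -0.054, -0.15 and -0.12 in tRA mice 1 to 4. For the 8 Sm core genes, the mean of log2 CPM centred on each gene was 0.175, -0.035, 0.31 and 0.053 in control mice and 0.16, -0.15, -0.30 and -0.22 in tRA mice. With an offset on transcript length and GC content, the log2 fold change was -0.55 for Snrpf, -0.325 for Snrpd2, -0.34 for Snrpg, -0.335 for Snrpe and -0.355 for Sf3b5. With an offset on coding length and GC content, a setting chosen after seeing the data, the log2 fold change was -0.48 for Snrpf, -0.26 for Snrpd2, -0.25 for Snrpg, -0.26 for Snrpe and -0.22 for Sf3b5, and the LSm median was -0.030. The part of transcript length in the values of the members was not tested further.

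**Figure D3:**
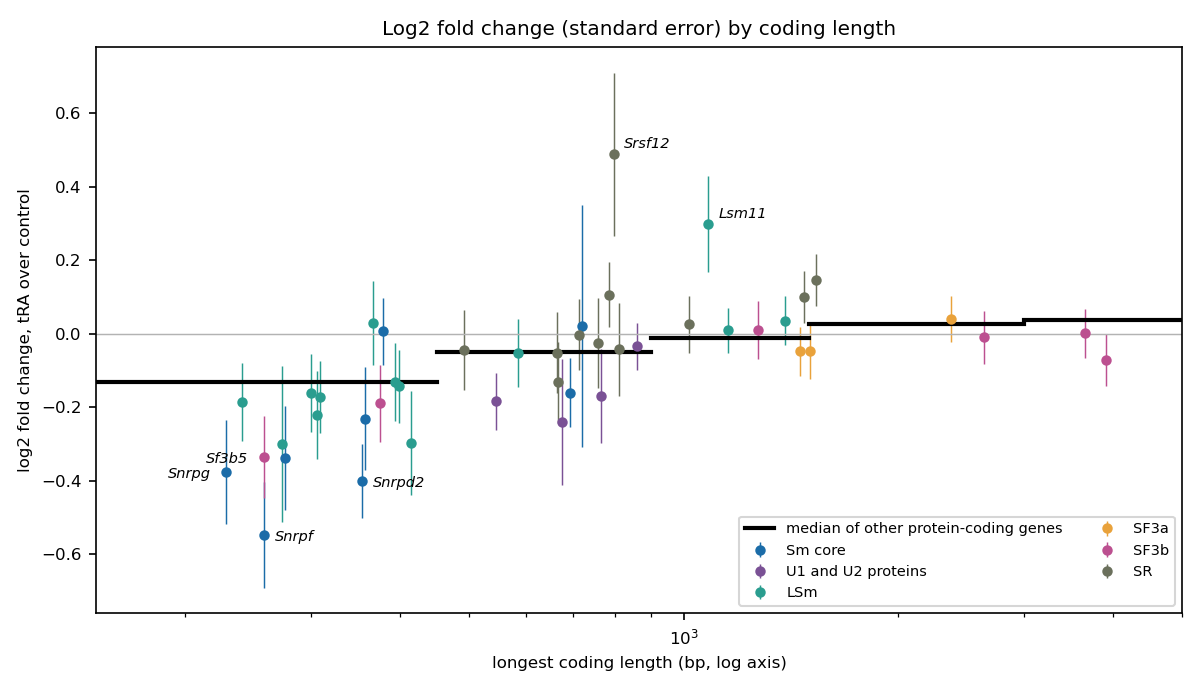
Log2 fold change (tRA over control, with standard error) of the 45 genes against their longest coding length (log axis), coloured by class, with black lines for the median of the other protein-coding genes in each range of length. The line lies at -0.13 up to 450 bp and at 0.039 over 3000 bp.

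The lists of other genes had values on both sides of 0. All 10 immediate early and heat shock genes, which respond to the handling of tissue, had a negative log2 fold change, with a median of -0.75, and 7 of them had an unadjusted p under 0.05, beside 6.49% of all genes. Their summed level, led by Fosb in control mice (mean 3319 CPM) and by Fos in tRA mice (mean 2216 CPM), was 17172, 15853, 17902 and 14531 CPM in control mice and 14595, 12486, 5588 and 8263 CPM in tRA mice, with tRA mice 3 and 4 lowest in the sum. The order of the tRA mice differed within the list. Fos was at 3563, 2762, 1117 and 1420 CPM in tRA mice 1 to 4, whereas the heat shock gene Hspa1a was at 127, 296, 77.3 and 307 CPM, lowest in mice 1 and 3. All 6 neutrophil precursor genes had a negative log2 fold change too, with a median of -0.955, and all 6 had an unadjusted p under 0.05. They summed to 490, 611, 650.3 and 553 CPM and to 216, 265, 294 and 423 CPM, led by Ngp, and no gene of either list had 0 counts over the 8 mice. The 6 red pulp macrophage genes were negative as well, with a median of -0.19, and summed to 509.6, 612, 478 and 372 CPM and to 346, 476, 543 and 406 CPM, led by Hmox1, with overlapping groups. The 5 plasma cell genes had 3 negative values and a median of -0.17, with Jchain at -0.46 and Mzb1 at -0.315, both at an unadjusted p under 0.05. They summed to 794, 760.2, 849 and 963 CPM and to 577, 768, 651 and 642 CPM, led by Jchain. The erythroid list had 6 of 7 genes positive and a median of 0.43. It was led by Hbb-bs and varied within both groups, with sums of 847, 1609, 2476 and 522 CPM and of 2321, 660.3, 3708 and 625 CPM. The T cell list had 4 of 6 positive, with a median of 0.115, and the B cell list 3 of 6, with a median of -0.0092. The medians were -0.076 over 4 NK cell genes, -0.090 over 5 dendritic cell genes and -0.031 over 8 genes of cycling cells. None of these lists was tested for its part in the values of the members.

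Processed pseudogenes, intronless copies of an mRNA, share sequence with several members, and some carry counts. Whether those counts are reads of the member or of the copy was not tested. Snrpf has a copy, Gm13092, on chr4:150315177-150315436 (GRCm38, minus strand), that received 1605 counts over the 8 mice, which compares with 5127 on Snrpf itself (a ratio of 31.3%) at chr10:93583029-93589706 (minus strand). Snrpg, at chr6:86371304-86379328 (plus strand), has Gm8186 at chr17:26098991-26099221 (minus strand) with 1552 counts, beside 5382 on Snrpg (28.8%). Their sequences, shown because the counts of these copies are large beside those of the member, have mismatches in capitals. Of the 258 coding bases of Snrpf, the 255 that aligned are shown, and Gm13092 differs from them at 3. Gm8186 is identical to Snrpg over all 228 coding bases, so that a read lying inside that stretch cannot be assigned between them.
Snrpf coding sequence, aligned part: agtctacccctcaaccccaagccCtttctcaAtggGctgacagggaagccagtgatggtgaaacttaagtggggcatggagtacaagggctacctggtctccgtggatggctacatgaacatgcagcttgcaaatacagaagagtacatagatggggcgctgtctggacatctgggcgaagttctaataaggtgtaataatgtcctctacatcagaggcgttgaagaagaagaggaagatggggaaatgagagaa
Gm13092: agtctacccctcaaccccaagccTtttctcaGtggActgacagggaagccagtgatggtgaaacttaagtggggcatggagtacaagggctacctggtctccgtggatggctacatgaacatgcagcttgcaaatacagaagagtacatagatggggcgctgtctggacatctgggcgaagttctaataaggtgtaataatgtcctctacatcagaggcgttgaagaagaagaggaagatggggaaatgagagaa
Snrpg coding sequence, also Gm8186: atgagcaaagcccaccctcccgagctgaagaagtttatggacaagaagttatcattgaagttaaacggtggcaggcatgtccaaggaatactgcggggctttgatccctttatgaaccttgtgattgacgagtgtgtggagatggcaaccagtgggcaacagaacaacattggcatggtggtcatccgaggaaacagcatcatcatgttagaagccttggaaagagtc
Gm13092 was at 6.66 ± 0.498 CPM (SD, n = 4) in control and 5.28 ± 0.533 CPM (SD, n = 4) in tRA mice, a log2 fold change of -0.33, and Gm8186 had -0.30. With the counts of each gene and its copies summed, a setting chosen after seeing the data, the values were -0.50 for Snrpf, -0.36 for Snrpg and -0.35 for Snrpe, whose copy Snrpert received 573 counts, beside 7628 on Snrpe (7.51%). The levels of these genes are uncertain where counts could have been split between gene and copy. Whether the counting used the strand is not stated, and genes that overlap members on the opposite strand may share reads with them. Such overlaps include those of Gucd1 with Snrpd3, Plekhj1 with Sf3a2, Mettl23 with Srsf2, Gm44941 with Snrpg and Ccdc38 with Snrpf. They were taken over whole genes, introns included, and overlap of exons was not checked. Snrpn overlaps Snurf on its own strand.

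RefSeq promoters (GRCm38.p6, 1 per gene, 300 bases) were matched for 38 of the 45 members. Their median GC content was 60.3%, against 52.7% over 27025 promoters, with 24 and 7 CG dinucleotides. The ETS motif CCGGAAG, on either strand, was present in 15 of 38 (39.5%), against 9.14% of all promoters. These were Lsm5, Sf3a1, Sf3a2, Sf3a3, Sf3b2, Sf3b3, Sf3b6, Snrpb2, Snrpc, Snrpe, Snrpg, Srsf4, Srsf5, Srsf7 and Srsf11. The hexamer AGGTCA, which retinoic acid receptors and other nuclear receptors bind, was present in 10 (26.3%), against 16% of all. CCAAT was in 15 (39.5%, against 38%), TATAAA in 4 (10.5%, against 14.2%), GCGCATG in 4 (10.5%, against 4.03%), AAGATGG in 2 (5.26%, against 6.46%) and CACGTG in 1 (2.63%, against 7.24%). A start at C followed by 4 pyrimidines was seen in 1 (Srsf5), against 2.48% of all. A match says only that the letters are there. The promoters of the 2 genes whose groups did not overlap are shown from 150 bases before the start to 30 after it, with matched motifs in capitals, for Snrpd2 at chr7:19149688-19149867 (plus strand) and Snrpf at chr10:93589629-93589808 (minus strand). Snrpf holds a pair of CCAAT motifs and an AGGTCA, and Snrpd2 holds none of the letters searched in this window.
Snrpd2 promoter: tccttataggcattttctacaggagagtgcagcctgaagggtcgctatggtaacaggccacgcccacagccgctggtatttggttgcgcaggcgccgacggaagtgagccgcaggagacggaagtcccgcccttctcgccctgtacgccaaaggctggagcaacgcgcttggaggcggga
Snrpf promoter: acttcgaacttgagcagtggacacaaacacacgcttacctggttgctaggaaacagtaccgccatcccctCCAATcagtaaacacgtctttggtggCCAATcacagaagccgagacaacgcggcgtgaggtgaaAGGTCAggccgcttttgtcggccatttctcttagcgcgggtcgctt

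Partner genes were taken as 11 lists, of other splicing proteins and of proteins for snRNP assembly, mRNA export, decay and histone pre-mRNA processing. These lists had medians from -0.028 to 0.039, and 0 genes of any list were called at an FDR under 0.1 by edgeR. The coding lengths of the partner genes were not compared with those of the members. At an unadjusted p under 0.05 there was 1 of 10 genes of the U1 list, 2 of 12 of the minor spliceosome and 1 of 29 of the hnRNP list, beside 6.49% of all genes tested. These directions are not firm, since the median of every list but the histone pre-mRNA partners took either sign across the alternatives. Of 10 U1 snRNP and U1-associated proteins 3 were negative, from Snrnp70 (-0.047) to Tia1 (0.19), but 7 were with an offset on length and GC content, where the median was -0.014, 5 with the offset on coding length or without control mouse 2, and 1 with library size alone or without control mouse 3. Of 16 U2 and branch site proteins 7 were negative, from U2af1 (-0.23) to U2af1l4 (0.21). The 21 genes tested of the U5 and U4/U6.U5 tri-snRNP had 14 negative, from Snu13 (-0.25) to Prpf8 (0.16), and 9 with library size alone. The 12 minor spliceosome genes were evenly divided, from Pdcd7 (-0.26) to Snrnp35 (0.20).

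Of 24 Prp19 complex and catalytic step genes 15 were negative (Ppie, -0.21, to Cwc22, 0.15), and of 18 exon junction complex and export genes 11 were (Rbm8a, -0.35, to Pnn, 0.19). Of the 21 SR-related proteins and SR protein kinases 7 were negative (Tra2b, -0.17, to Srrm2, 0.21), and 11 with the offset on coding length, where the median was -0.0017. Of 29 hnRNP genes 17 were negative (Hnrnpa0, -0.29, to Hnrnpr, 0.14). The count was 11 with library size alone, 9 without tRA mouse 3 and 8 without tRA mouse 4. It was 18 with the offset on coding length and 20 without tRA mouse 1.

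Of 19 genes tested of the SMN complex and snRNP assembly, which load the Sm ring on its RNA, 9 were negative (Mepce, -0.14, to Coil, 0.20), and 14 without control mouse 2. Of 12 decapping and decay partners of LSm1 to LSm7, 5 were negative (Pnrc1, -0.14, to Eif4enif1, 0.11), and 8 with either offset or without control mouse 3. Of 12 partners of LSm10 and LSm11 in histone pre-mRNA processing, 6 were negative (Slbp, -0.11, to Zfp473, 0.13), 2 with library size alone and 3 without control mouse 1 or tRA mouse 1.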

How the data were processed

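Total RNA of 8 splenocyte samples was sequenced as paired-end TruSeq libraries on 1 lane. The authors deposited raw read counts per gene. By the study's methods these came from trimming with ea-utils and Btrim, alignment with Bowtie2 and Tophat2 and counting with HTSeq, whereas the submitters' processing notes name STAR 2.5.2b, featureCounts 1.5.1 and DESeq2 1.26.0. The deposited comparison of tRA with control, with its fold changes and p-values, was not used. Genes were named from GENCODE M21 (51633 of 51826 identifiers, 193 without an entry). In R 4.3.3, genes kept by filterByExpr (minimum count 10) were normalized by TMM and tested over the 16484 genes by edgeR 4.0.16 (quasi-likelihood, Benjamini-Hochberg FDR under 0.1). The alternatives were DESeq2 1.42.0, limma-voom (limma 3.58.1), other normalizations and filters, the replicate number as a block, offsets on length and GC content, and each mouse left out in turn. The fit was also run on simulated counts, drawn for each gene on its own. These held no shift shared by the genes of a mouse, so the run cannot speak to such shifts in these data. Class means used log2(CPM + 0.5). Promoters shown are those of members whose groups do not overlap, and copies shown are those with the most counts, both chosen after their values were seen. Copies were found with blastn 2.17.0 (identity of at least 95% over at least 100 bases), and figures drawn with matplotlib 3.10.9 in Python 3.11.15. The offsets used loess fits (span 0.3, degree 1). The chi-square per degree of freedom between mice of a group was 12.9 to 65.4, above sampling noise. Values in every mouse are given for the Sm core, for the most abundant, most positive and most negative member of each class, and for members at an unadjusted p under 0.05. Members and lists were chosen with earlier results of these data known. Protein sequences were not used here.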

Additional observations from a re-analysis of the deposited data

Results flagged for a closer look

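In 4 of 102 groups of 4 mice examined (45 genes and 6 class means in each group), 1 mouse stood apart from the other 3. Chance gives about 1 in 20 groups, or 5.1 of the 102, which is above the 4 seen. All 4 were tRA mouse 1. It had 97.2 CPM of Snrpd3, where the other tRA mice had 81.8 to 82.6 CPM, and 45.1 CPM of Lsm12, where the others had 39.5 to 39.8 CPM. It had 259 CPM of Sf3b3 against 232 to 236 CPM, and 60.4 CPM of Sf3b6 against 54.1 to 54.4 CPM. Its Lsm12 and Sf3b6 lay within the range of the control mice, 37.6 to 48.0 and 54.6 to 74.5 CPM. Its Snrpd3 and Sf3b3 lay above the highest control mouse, at 97.1 and 248 CPM. The members share the library of tRA mouse 1, so the 4 groups are not independent of each other.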

How the results depend on the processing

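Under 18 alternatives and 2 more chosen after seeing the data (the coding length offset and the sums with copies), 0 members were called at an FDR under 0.1, where DESeq2 and limma-voom were 1 alternative each and the others were fitted with edgeR, which had 7 members at an unadjusted p under 0.05 with all 8 mice (6.49% of all genes), against 8 with DESeq2 (4.18%) and 8 with limma-voom (6.75%). Genes called over the whole table numbered 27 with DESeq2, 1 with limma-voom and 6 with no filter on low counts, and 0 to 3 with 1 mouse left out (3 without tRA mouse 4). Members at an unadjusted p under 0.05 numbered 3 to 16 with 1 mouse left out (3.93% to 12.6% of all genes) and 11 with the length and GC offset with replicate block (6.98% of all genes). Members whose groups do not overlap numbered 2 (1.63% of all genes lower and 1.91% higher) with all 8 mice and 2 to 11 with 1 mouse left out (11 without tRA mouse 1, with 6.95% of all genes lower and 5.7% higher). The SF3a median was 0.0082 with the length and GC offset, 0.0089 with this offset and the replicate block, 0.011 with the coding length and GC offset, and -0.043 to 0.0049 with 1 mouse left out, and the LSm median of -0.14 was -0.198 to -0.084 with 1 mouse left out and -0.030 with the coding length and GC offset. The cause was not tested. By length of the longest transcript, the medians in control mice were 27.2 CPM per kb for the Sm core, 21.2 for U1 and U2 proteins, 12.3 for LSm, 29.4 for SF3a, 44.5 for SF3b and 101 for SR, as merged exons are longer. The medians of the Sm core (-0.39 to -0.19 with 1 mouse left out) and of U1 and U2 proteins (-0.25 to -0.069) stayed negative in every alternative. Of 900 alternative values of single members' log2 fold changes, 11 moved by more than 1 SD of the mice. Of 440 alternative values of the partner lists, 27 moved, medians by more than 1 SD or counts by over 1.5 times. The sample titles give same-numbered mice no link beyond the number, and whether they share a batch is not known. The correlations of their deviations were 0.157, -0.0229, -0.014 and 0.259. Over all pairs of a control and a tRA mouse they ran from -0.283 to 0.271. With the replicate block, 0 genes and 0 members were called, and 7 members had an unadjusted p under 0.05, beside 7.28% of all genes. Depth limits Snrpn and Srsf12 most, at about 1 and 2 CPM.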
